A study of Homo sapiens with 6 samples.

Results

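The genes described here are 10 genes whose products define or set the epithelial and mesenchymal states of a cell. They were taken by symbol from the deposited table, which lists 38637 genes: CDH1, EPCAM and ESRP1 on the epithelial side, CDH2 and VIM on the mesenchymal side, and the transcription factor genes ZEB1, ZEB2, SNAI1, SNAI2 and TWIST1. All 10 were found in the table, and all 10 were among the 16178 genes that passed the filter on low values and were tested. Polyadenylated RNA was sequenced from OVCAR8, a human ovarian cancer cell line, of wild type genotype in both groups. The cells were kept for 72 h in DMSO, the solvent, or in pladienolide B, a small molecule that binds the splicing factor SF3B1, and there were 3 samples in each group. The dose of pladienolide B, 2 nM, is given in the description of the whole series and not in the sample labels. The labels do not say that the samples of a group came from separate cultures, so the p-values below measure only the spread between these samples, which may be technical.

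Epithelial cells are held to their neighbours by junctions built on E-cadherin, the product of CDH1. In the epithelial to mesenchymal transition, a change of state that occurs in development and in carcinomas, E-cadherin gives way to N-cadherin, the intermediate filament protein vimentin accumulates, and the cells become more migratory. The SNAIL, ZEB and TWIST proteins are transcription factors that repress CDH1 and other epithelial genes, while ESRP1 keeps many transcripts in their epithelial splice form. Ovarian carcinomas often express markers of both states.

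The reads on genes, recovered from the deposited values, numbered 25006154 to 26130882 for DMSO and 22621338 to 24036812 for pladienolide B. DMSO replicate 2 stood apart from the other DMSO samples: its reads differed from theirs by a chi-square of 7.69 and 7.62 per degree of freedom, against 1.95 between DMSO replicates 1 and 3 and 3.32 to 4.94 between pladienolide B samples. With this sample left out, each of the 8 genes described below as risen or fallen still passed the test. The markers of ovarian carcinoma in the table included PAX8, at a mean of 4108 adjusted reads in DMSO and 4341 in pladienolide B, while WT1 and MUC16 were low, at means of 20.6 and 18.0 in DMSO. Of the leukocyte markers, CD3E had 0 reads in all 6 samples, a count that allows up to 0.115 to 0.133 reads per 1000000 in a library by counting error alone, and PTPRC had 0 to 2 reads. The fibroblast marker DCN had 0 to 2 reads and the endothelial marker CDH5 0 to 4. The summed marker lists were nevertheless not equal between the groups. The 5 leukocyte markers summed to 1135 to 1290 adjusted reads in DMSO and 1531 to 1628 in pladienolide B, nearly all of it CD68, and the 6 fibroblast markers to 6947 to 7125 and 5836 to 6550, nearly all of it COL1A1. The 5 endothelial markers summed to 64.6 to 91.7 and 105 to 128, and the 4 mesothelial markers to 5345 to 5657 and 4002 to 4266, mostly MSLN. The part of these differences in the results below was not tested.

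VIM and CDH2 had the highest levels of the 10 genes and CDH1 the lowest, in both groups. Genes were compared on the RPKM scale, the reads per kilobase of transcript and per 1000000 reads of the library. On it VIM stood at a mean of 1299 in DMSO and CDH2 at 47.6, while CDH1 stood at 0.199. EPCAM followed CDH2 in this order, at 12.4 in DMSO. The transcription factor genes lay between, from TWIST1 at 9.29 through SNAI1 at 6.53, ZEB2 at 5.59 and ZEB1 at 4.75 to SNAI2 at 2.21, with ESRP1 at 2.47. In DMSO, the samples of neighbours in this order did not overlap except for ESRP1 and SNAI2, so these 2 genes cannot be ordered. In pladienolide B the first 4 places and the last were held by the same genes as in DMSO. The per-length level of SNAI1, 5.35, then lay below that of ZEB2, 6.50, and overlapped that of ZEB1, 5.49. SNAI2, at 3.26 RPKM, then lay above ESRP1, at 1.92, in every sample.

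**Figure D1:**
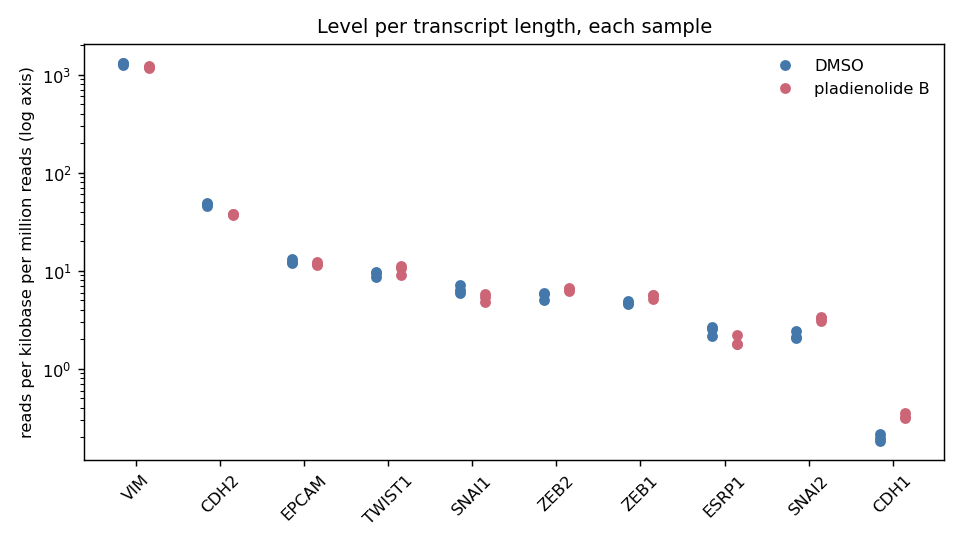
Each point is 1 sample, with DMSO in blue and pladienolide B in red, and the vertical axis gives the level per transcript length (RPKM) on a log scale. VIM is the highest and CDH1 the lowest in every sample, and the 8 other genes lie between them in both groups.

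After pladienolide B, 8 of the 10 genes passed the test with an adjusted p under 0.05 in limma on log2(adjusted reads + 1) with Benjamini-Hochberg adjustment over all 16178 genes. That was a comparison in which 47.6% of all genes tested passed. CDH1, ZEB1, ZEB2 and SNAI2 rose, where 22.4% of all genes rose, and CDH2, VIM, SNAI1 and ESRP1 fell, where 25.2% of all genes fell. The changes were small. The largest was that of CDH1, to 161% of its DMSO mean. A change of at least 2-fold was seen for 0 of the 10 genes, under limma and under each alternative, where 1.95% of all genes rose and 1.98% fell by that much with an adjusted p under 0.05. The median log2 fold change over the 10 genes was 0.01, beside 0.00 over all genes tested. The samples of the groups did not overlap for 8 of the 10 genes, where 55.3% of all genes had groups apart. Both mesenchymal genes, CDH2 and VIM, fell. The epithelial genes did not move together, since CDH1 rose while ESRP1 fell, and among the transcription factor genes SNAI2 rose while its relative SNAI1 fell.

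**Figure D2:**
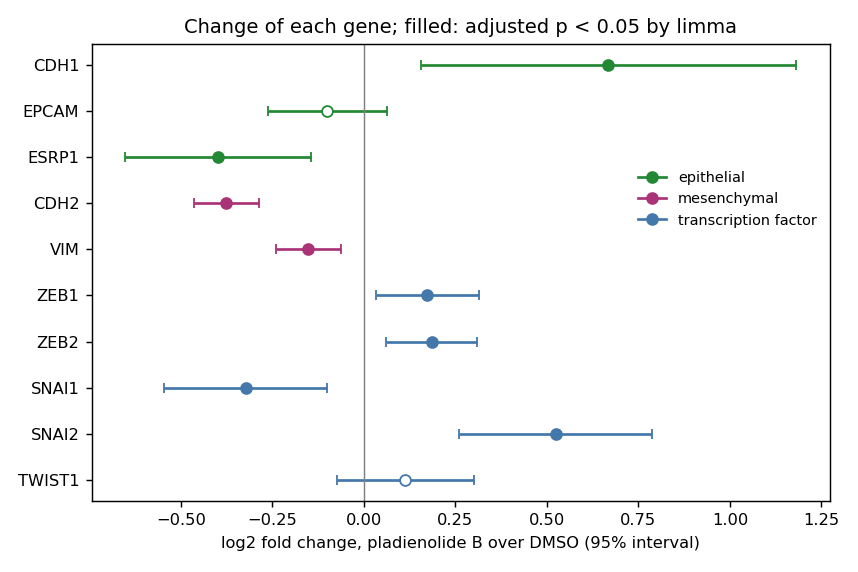
Each point is the log2 fold change of a gene in pladienolide B over DMSO, on the log2(adjusted reads + 1) scale, with its 95% interval from limma over 3 samples a group, and open points did not pass an adjusted p of 0.05. Both directions occur among the epithelial genes (green) and among the transcription factor genes (blue), while the 2 mesenchymal genes (purple) lie below 0.

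CDH1 (chr16:68737292-68835537, plus strand, GRCh38) encodes E-cadherin. It had 21.6, 24.2 and 25.6 adjusted reads in DMSO replicates 1 to 3, and 41.6, 36.4 and 37.1 in pladienolide B replicates 1 to 3. All 3 pladienolide B samples lay above all 3 DMSO samples. These values rest on 23, 24 and 27 reads in DMSO and 40, 34 and 37 in pladienolide B. The mean went from 23.8 ± 2.02 to 38.4 ± 2.86 (SD, n = 3), a log2 fold change of 0.67 (SE 0.24, 95% interval 0.15 to 1.18, limma adjusted p = 0.0317). In these bulk samples, more cells with CDH1 transcripts and more transcripts per cell cannot be told apart. The call was lost without DMSO replicate 1 (log2 fold change 0.60, limma adjusted p = 0.087) and without pladienolide B replicate 1 (0.61, 0.102), 2 (0.70, 0.0565) or 3 (0.69, 0.0608), and it was lost by DESeq2 on the recovered reads (0.70, adjusted p = 0.0761).

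Of the genes tested, those whose pattern over the 6 samples was closest to that of CDH1, each gene centred on its own mean log2 value, were ANGEL1, ATP6V0B and RBP4. Their root mean square differences from CDH1 were 0.0518, 0.0583 and 0.0640 on the log2 scale, and their own log2 fold changes were 0.62, 0.60 and 0.63.

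EPCAM (chr2:47369311-47387020, plus strand) encodes an epithelial cell adhesion molecule at the cell surface. It had 453, 513 and 465 adjusted reads in DMSO and 463, 431 and 440 in pladienolide B, and the groups overlapped. The mean was 477 ± 31.6 and 445 ± 16.1 (SD, n = 3), with a log2 difference of −0.10 (95% interval −0.26 to 0.06, limma adjusted p = 0.305). Changes within these bounds could not be told from 0 with 3 samples a group.

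ESRP1 (chr8:94640999-94707466, plus strand) encodes an epithelial splicing regulator that acts on transcripts such as those of FGFR2, CD44 and CTNND1. It had 249, 205 and 238 adjusted reads in DMSO and 163, 200 and 162 in pladienolide B. The groups were apart by the small gap between DMSO replicate 2 and pladienolide B replicate 2, and on the per-length scale, which uses the plain library totals, these 2 samples overlapped at 2.15 and 2.21 RPKM. ESRP1 fell to 75.9% of its DMSO mean, from 231 ± 23.1 to 175 ± 21.7 (SD, n = 3), a log2 fold change of −0.40 (SE 0.12, 95% interval −0.65 to −0.14, limma adjusted p = 0.0116). The call was lost without DMSO replicate 1 (−0.34, limma adjusted p = 0.0562) and without pladienolide B replicate 3 (−0.35, limma adjusted p = 0.0515). Its paralog ESRP2 had a mean of 896 adjusted reads in DMSO and 877 in pladienolide B, a log2 difference of −0.04 (limma, adjusted p = 0.709).

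CDH2 (chr18:27932878-28177130, minus strand) encodes N-cadherin, the cadherin of mesenchymal and neural cells. It had 4811, 4858 and 4552 adjusted reads in DMSO and 3685, 3655 and 3613 in pladienolide B, so that every treated sample lay below every control sample. CDH2 fell to 77.0% of its DMSO mean, from 4740 ± 165 to 3651 ± 36.4 (SD, n = 3), with a log2 fold change of −0.38 (SE 0.04, 95% interval −0.46 to −0.29, limma adjusted p = 1.5e-06). Of the 10 genes, CDH2 had the smallest adjusted p. It kept this call under every alternative tried, with a log2 fold change between −0.40 and −0.35.

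The per-length level of CDH2 was 266, 241 and 214 times that of CDH1 in DMSO replicates 1 to 3, and 106, 121 and 117 times that of CDH1 in pladienolide B replicates 1 to 3. The ratio was thus lower in every treated sample, and N-cadherin transcripts still outnumbered E-cadherin transcripts by more than 100 to 1. This ratio rests on the 23 to 40 CDH1 reads of each sample.

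VIM (chr10:17228241-17237593, plus strand) encodes vimentin, the intermediate filament protein of mesenchymal cells. It had 69709, 68731 and 69659 adjusted reads in DMSO and 63237, 63686 and 60442 in pladienolide B, and the groups did not overlap. VIM alone took 0.273% to 0.283% of all gene reads in DMSO and 0.251% to 0.264% in pladienolide B. It fell to 90.0% of its DMSO mean, from 69366 ± 551 to 62455 ± 1758 (SD, n = 3), a log2 fold change of −0.15 (SE 0.04, 95% interval −0.24 to −0.06, limma adjusted p = 0.0068). This is the smallest of the 8 changes that passed, and it passed under every alternative tried, with adjusted p of up to 0.0412. The per-length ratio of VIM to CDH2 was 27.0, 26.4 and 28.5 in DMSO and 32.0, 32.5 and 31.2 in pladienolide B, so CDH2 lost the larger share.

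VIM shares 1745 bases with VIM-AS1, a noncoding gene on the opposite strand, and the sources used here do not say whether reads were counted by strand. VIM-AS1 had 15935 to 17984 reads in DMSO and 14307 to 14838 in pladienolide B. Its log2 fold change was −0.12 (limma, adjusted p = 0.0219), near that of VIM, and the reads of the 2 genes over the shared bases cannot be told apart. That call was lost without DMSO replicate 1 (−0.12), DMSO replicate 3 (−0.09), pladienolide B replicate 1 (−0.13) or pladienolide B replicate 3 (−0.10). It was also lost without the variance trend, by edgeR with upper-quartile normalization and with the replicate block.

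ZEB1 (chr10:31318417-31529804, plus strand) and ZEB2 (chr2:144384081-144520119, minus strand) encode zinc finger and homeobox repressors of CDH1. ZEB1 had 694, 738 and 665 adjusted reads in DMSO and 818, 741 and 806 in pladienolide B, with DMSO replicate 2 just under pladienolide B replicate 2. ZEB1 rose from 699 ± 36.6 to 788 ± 41.2 (SD, n = 3), or to 113% of DMSO, a log2 fold change of 0.17 (SE 0.07, 95% interval 0.03 to 0.31, limma adjusted p = 0.04). It was the call nearest to the threshold. It was lost by DESeq2 and without DMSO replicate 1 (0.17), DMSO replicate 3 (0.14), pladienolide B replicate 1 (0.15) or pladienolide B replicate 3 (0.16).

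ZEB2 had 1348, 1176 and 1325 adjusted reads in DMSO and 1469, 1400 and 1502 in pladienolide B, and every treated sample lay above every control sample. Its mean rose from 1283 ± 93.1 to 1457 ± 52.3 (SD, n = 3), a log2 fold change of 0.19 (SE 0.06, 95% interval 0.06 to 0.31, limma adjusted p = 0.0159). The call was lost without pladienolide B replicate 1 (0.18, limma adjusted p = 0.0525) and without pladienolide B replicate 3 (0.16, limma adjusted p = 0.0699). The per-length ratio of ZEB2 to ZEB1 was 1.24, 1.02 and 1.28 in DMSO and 1.15, 1.21 and 1.19 in pladienolide B, ranges that overlapped.

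Antisense genes lie across the starts of both ZEB genes. ZEB1-AS1 shares 2031 bases with ZEB1 and had 17 to 46 reads, with a log2 difference of −0.42 that did not pass (limma, adjusted p = 0.27). ZEB2-AS1 shares 506 bases with ZEB2 and had 0 to 4 reads. LOC100505502, which shares 38329 bases with ZEB1 on the opposite strand, had 0 to 1 read. Of the transcripts that overlap another of the 10 genes or lie within 5000 bases of it, MIR559, inside EPCAM, had 0 to 2 reads. LOC105373656 near ZEB2 had 0 to 2 reads and LINC01412, also near ZEB2, 0. LINC02894 near ESRP1 had 0 to 4 reads and LOC107986942 near SNAI2 0 to 3.

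ZEB1 and ZEB2 transcripts are known targets of the microRNAs of the miR-200 family and of miR-205, which epithelial cells express. MIR200CHG, the gene that spans miR-200c and miR-141, had 0 reads in the DMSO samples and 1, 1 and 0 in the pladienolide B samples, and MIR205HG had 0 reads in all 6. Mature microRNAs are not polyadenylated and were not measured here. Their sequences from RefSeq on GRCh38.p14 are given to show how the pair at the first locus is related, with the seed, bases 2 to 8, in capitals. The seeds of miR-200c and miR-141 are not identical, and that of miR-205 differs from both. The first lies at chr12:6963742-6963764, the second at chr12:6964155-6964176 and the third at chr1:209432166-209432187, all on the plus strand.
hsa-miR-200c-3p: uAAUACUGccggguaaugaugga
hsa-miR-141-3p: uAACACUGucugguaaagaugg
hsa-miR-205-5p: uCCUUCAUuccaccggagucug

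SNAI1 (chr20:49982980-49988886, plus strand) and SNAI2 (chr8:48917598-48921429, minus strand) encode the related zinc finger repressors SNAIL and SLUG. SNAI1 had 269, 257 and 302 adjusted reads in DMSO and 239, 223 and 199 in pladienolide B, and the groups did not overlap. SNAI1 fell to 79.9% of DMSO, from 276 ± 23.2 to 221 ± 20.1 (SD, n = 3), a log2 fold change of −0.32 (SE 0.11, 95% interval −0.55 to −0.10, limma adjusted p = 0.0184). The call was lost without DMSO replicate 3 (−0.26, limma adjusted p = 0.0947) and without pladienolide B replicate 3 (−0.25, limma adjusted p = 0.0879).

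SNAI2 had 114, 114 and 131 adjusted reads in DMSO and 180, 161 and 174 in pladienolide B, with every treated sample above every control sample. It rose to 144% of DMSO, from 119 ± 9.71 to 172 ± 9.60 (SD, n = 3), a log2 fold change of 0.52 (SE 0.12, 95% interval 0.26 to 0.79, limma adjusted p = 0.00232). It passed under every alternative tried, with a log2 fold change of 0.49 to 0.59. The per-length level of SNAI1 was 3.02, 2.89 and 2.96 times that of SNAI2 in DMSO and 1.70, 1.77 and 1.46 times in pladienolide B. The 2 SNAIL family transcripts were thus closer in level in every treated sample than in any control sample.

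TWIST1 (chr7:19113047-19117636, minus strand) encodes a basic helix-loop-helix factor. It had 381, 354 and 391 adjusted reads in DMSO and 426, 360 and 435 in pladienolide B, and the groups overlapped through pladienolide B replicate 2. The mean was 375 ± 19.1 and 407 ± 40.7 (SD, n = 3), with a log2 difference of 0.11 (95% interval −0.07 to 0.30, limma adjusted p = 0.314).

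**Figure D3:**
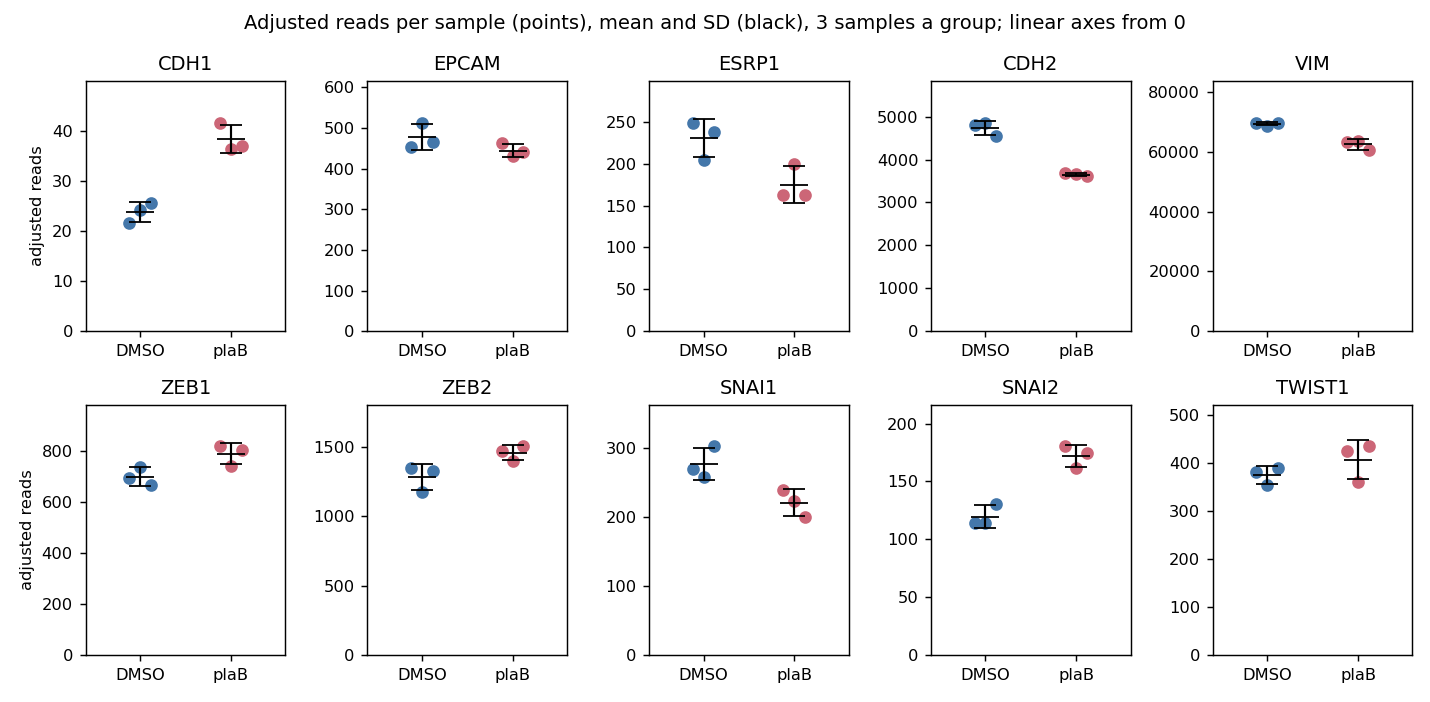
Adjusted reads of the 10 genes in each sample (points, replicates 1 to 3 from left to right) with the mean and SD in black, on linear axes that start at 0. The groups are apart for CDH1, CDH2 and SNAI2 by wide gaps, by narrower gaps for VIM, SNAI1, ESRP1, ZEB1 and ZEB2, and overlap for EPCAM and TWIST1.

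The stretches before the starts of 4 of these genes are printed, those of CDH2 and VIM, which fell, and of ZEB1 and ZEB2, which rose. The stretches are the 250 bases before each gene's start in RefSeq on GRCh38.p14, read along the gene, with any CAGGTG in capitals. GENCODE places the starts of CDH2 and ZEB2 further upstream, at 28177946 and 144521057, so their windows lie inside the GENCODE genes. It places the start of ZEB1 further downstream, at 31318495, so the ZEB1 window does not reach that start. CAGGTG is the form of the CANNTG motif, or E-box, best known as bound by the SNAIL and ZEB proteins, and it was searched on both strands. Of 35116 promoters of the same length, 17.49% held CAGGTG and 61.82% held CANNTG, which includes it. CDH2 held 0 CANNTG matches, VIM 0, ZEB1 2 and ZEB2 1. ZEB1 held 1 CAGGTG, which begins 57 bases before its RefSeq start and further before its GENCODE start. The GC content was 66% for CDH2 and 59.2% for ZEB1, with 17 and 15 CpG pairs, but 46% for VIM and 48% for ZEB2, with 8 and 12, beside medians of 58% and 11 over all promoters. A match here is a description of the letters and not of a bound site. The windows are chr18:28177131-28177380 on the minus strand for CDH2, chr10:17227991-17228240 on the plus strand for VIM, chr10:31318167-31318416 on the plus strand for ZEB1 and chr2:144520120-144520369 on the minus strand for ZEB2. No sequence is given for CDH1, EPCAM, SNAI1, TWIST1, SNAI2 or ESRP1, although CDH1 and SNAI2 also rose and SNAI1 and ESRP1 also fell. The 4 genes printed were not chosen by the size of their change.
CDH2: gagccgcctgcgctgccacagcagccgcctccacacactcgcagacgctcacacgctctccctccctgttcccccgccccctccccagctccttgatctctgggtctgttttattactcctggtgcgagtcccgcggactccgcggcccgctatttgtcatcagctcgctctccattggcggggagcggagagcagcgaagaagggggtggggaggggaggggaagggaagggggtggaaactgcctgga
VIM: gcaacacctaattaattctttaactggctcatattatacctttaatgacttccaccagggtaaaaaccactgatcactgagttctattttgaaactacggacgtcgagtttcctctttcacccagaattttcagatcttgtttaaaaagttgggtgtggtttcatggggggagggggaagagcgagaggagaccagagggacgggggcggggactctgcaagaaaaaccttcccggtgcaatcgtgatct
ZEB1: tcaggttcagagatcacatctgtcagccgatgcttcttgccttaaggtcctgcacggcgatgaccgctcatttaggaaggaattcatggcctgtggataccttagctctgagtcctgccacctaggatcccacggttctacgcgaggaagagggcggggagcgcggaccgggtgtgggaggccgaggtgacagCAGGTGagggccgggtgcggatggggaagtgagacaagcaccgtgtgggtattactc
ZEB2: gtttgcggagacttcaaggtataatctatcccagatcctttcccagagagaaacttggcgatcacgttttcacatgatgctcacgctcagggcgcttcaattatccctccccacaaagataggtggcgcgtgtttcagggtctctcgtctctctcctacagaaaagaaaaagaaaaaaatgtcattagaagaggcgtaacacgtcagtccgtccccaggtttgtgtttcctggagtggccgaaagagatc

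The other genes of the 2 states were read from lists of the same pathway, some of which include the genes above. Their counts stand beside the 22.4% of all genes tested that rose and the 25.2% that fell. Of 24 genes of epithelial junctions, CDH1 and EPCAM among them, 22 were tested, 6 rose and 5 fell, with a median log2 fold change of 0.05 beside 0.00 over all genes tested. CLDN4, which encodes a tight junction claudin, had 18.7, 21.2 and 34.3 adjusted reads in DMSO and 60.3, 52.4 and 51.1 in pladienolide B. Its log2 fold change was 1.16 (SE 0.26, limma adjusted p = 0.00129), the only change of at least 2-fold in this list. TJP3, a tight junction scaffold gene, rose by 0.75 on the log2 scale (limma, adjusted p = 0.00746), a call lost without pladienolide B replicate 1 (0.62, limma adjusted p = 0.0505). PKP3, which encodes a desmosomal plakophilin, had 1499 ± 60.2 adjusted reads in DMSO and 1036 ± 14.7 in pladienolide B (SD, n = 3), for a log2 fold change of −0.53. LLGL2, a polarity gene, went from 2168 ± 39.3 to 1603 ± 78.0, a log2 fold change of −0.44. CDH1, CLDN4 and TJP3, whose mean levels per length in DMSO were 0.199, 0.588 and 0.575 RPKM, thus rose, while PKP3 and LLGL2, at 21.5 and 24.6 RPKM, fell.

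All 12 epithelial keratin and surface protein genes were tested, of which 3 rose and 4 fell, with a median log2 fold change of 0.03. KRT8 and KRT18, which encode the keratin pair of simple epithelia, had log2 fold changes of 0.27 and 0.29 and were abundant, KRT18 at 19126 ± 757 adjusted reads in DMSO and 23546 ± 2706 in pladienolide B (SD, n = 3). SPINT2, a protease inhibitor gene, rose by 0.31 on the log2 scale. MUC1, the gene of a surface mucin, fell from 456 ± 52.2 to 280 ± 8.76 adjusted reads, and ERBB3, of a receptor tyrosine kinase, from 2827 ± 63.8 to 1813 ± 119, with log2 fold changes of −0.69 and −0.64. KRT7 also had a log2 fold change of −0.64, opposite in direction to KRT8 and KRT18.

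Of 12 epithelial transcription and splicing factor genes, ESRP1 among them, 6 had enough reads to be tested, of which 3 rose and 1, ESRP1, fell. The 4 calls became 2 without DMSO replicate 1 or pladienolide B replicate 3. RBM47, which encodes an RNA-binding protein, had a log2 fold change of 0.50 (limma, adjusted p = 0.00142). FOXA1 had 0.47 (limma, adjusted p = 0.0373), a call lost without DMSO replicate 1 (0.27), pladienolide B replicate 1 (0.49) or pladienolide B replicate 3 (0.37). GRHL2, OVOL1 and OVOL2, which encode factors that hold the epithelial state, had at most 5 reads in any sample.

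Of 34 mesenchymal genes of the cytoskeleton, surface and matrix, CDH2 and VIM among them, 28 were tested, the most of any list here. Of these 14 fell and 3 rose, where 25.2% of all genes tested fell and 22.4% rose, with a median log2 fold change of −0.25 beside 0.00 over all genes tested. FN1, which encodes the matrix protein fibronectin, went from 117905 ± 4316 adjusted reads to 54568 ± 6126 (SD, n = 3), a log2 fold change of −1.12 (SE 0.06, limma adjusted p = 4.9e-10). LOX, of a collagen crosslinking enzyme, had a log2 fold change of −0.88. On the other side NT5E, which encodes the surface enzyme CD73, rose from 15249 ± 872 to 24334 ± 392, a log2 fold change of 0.68, and the matrix gene SPARC rose by 0.43 on the log2 scale. The fibroblast markers COL1A1 and PDGFRB, both in this list, had log2 fold changes of −0.21 and −0.34, and the second call was lost without DMSO replicate 1 (−0.26), DMSO replicate 3 (−0.29), pladienolide B replicate 2 (−0.31) or pladienolide B replicate 3 (−0.35).

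**Figure D4:**
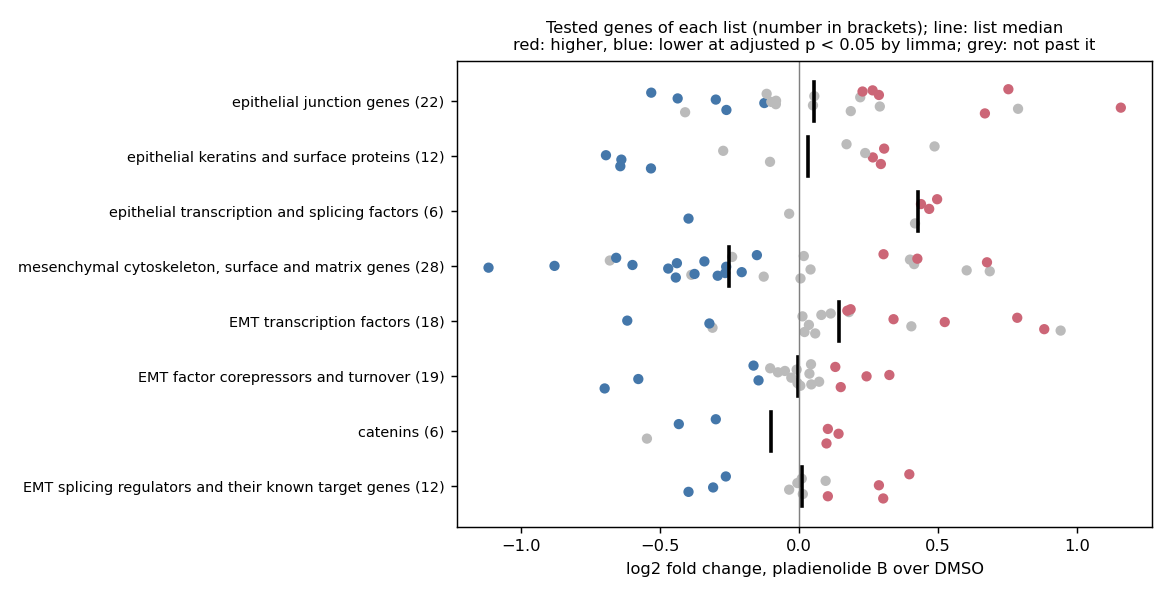
Each point is the log2 fold change in pladienolide B over DMSO of a tested gene, by list, in red where it rose and blue where it fell (limma, adjusted p under 0.05), and the black line is the list's median. In the mesenchymal list, the longest of the 8, 14 of 28 tested genes fell, and each list holds changes in both directions.

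Of 20 genes of factors tied to the transition, the 5 above among them, 18 were tested, 6 rose and 2 fell, with a median log2 fold change of 0.14. The 8 calls became 5 without DMSO replicate 3, pladienolide B replicate 1 or pladienolide B replicate 3. HMGA2, which encodes a chromatin protein, had 2895, 3231 and 2841 adjusted reads in DMSO and 5355, 5886 and 5274 in pladienolide B, with no overlap and a log2 fold change of 0.88 (SE 0.05, limma adjusted p = 1.4e-09). SOX9 had 100 ± 14.0 adjusted reads in DMSO and 173 ± 7.91 in pladienolide B (SD, n = 3), for a log2 fold change of 0.78. SNAI3, another SNAIL family gene, had 76.9 ± 16.3 and 50.1 ± 12.5, a log2 fold change of −0.62 (limma, adjusted p = 0.0286), a call lost without DMSO replicate 1 (−0.62), DMSO replicate 3 (−0.46) or pladienolide B replicate 1 (−0.41).

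The 19 genes of corepressors that SNAIL and ZEB proteins recruit and of enzymes that degrade these proteins were all tested, with 4 rises, 4 falls and a median log2 fold change of −0.01. The 8 calls became 5 without pladienolide B replicate 1. AJUBA, of a LIM protein that serves SNAIL as a corepressor, fell from 7341 ± 660 to 4513 ± 262 adjusted reads (SD, n = 3), a log2 fold change of −0.70. FBXL14, which encodes a ubiquitin ligase subunit acting on SNAIL, fell by 0.58 on the log2 scale, while FBXO45, of another such subunit, rose by 0.24. FBXW7 had a log2 fold change of 0.32, a call lost without pladienolide B replicate 1 (0.24).

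The catenins link cadherins to actin, and all 6 of their genes were tested, with 3 rises and 2 falls and a median log2 fold change of −0.10. The 5 calls became 2, with no rise among them, without DMSO replicate 1, and 3 without DMSO replicate 3 or any of the pladienolide B samples. CTNNB1, which encodes beta-catenin, and CTNND1, of p120 catenin, had log2 fold changes of 0.14 and 0.10. The CTNNB1 call was lost without DMSO replicate 1 (0.11), and the CTNND1 call when any sample other than DMSO replicate 2 was left out (0.09 to 0.11). JUP, of plakoglobin, had −0.30, and CTNND2, of a neural catenin, −0.43. Of 15 other classical cadherin genes, 5 had enough reads to be tested, and CDH4, of R-cadherin, rose from 442 ± 22.4 to 585 ± 43.4 adjusted reads (SD, n = 3), a log2 fold change of 0.40. Without pladienolide B replicate 2, 3 of these 5 passed. Of 13 splicing regulators of the transition and their known targets, ESRP1 and ESRP2 among them, 12 were tested, 4 rose and 3 fell, with a median of 0.01. SRSF1 and CD44 had log2 fold changes of 0.40 and 0.30, and HNRNPM and RBFOX2 of −0.31 and −0.26. The deposited table holds 1 value per gene and sample, so the splice forms of CD44, CTNND1 and the rest were not measured here.

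Of the marker lists read as a check of cell type, 4 of the 8 ovarian carcinoma markers passed, where 47.6% of all genes tested did, with KRT8 and KRT18 higher and KRT7 and MSLN lower, the last by a log2 fold change of −0.44. The KRT18 call was lost without the variance trend (limma, adjusted p = 0.0568). CD68 had a log2 fold change of 0.41. UPK3B, a mesothelial marker, had 5.52, 10.1 and 15.3 adjusted reads in DMSO and 21.9, 23.5 and 24.1 in pladienolide B, for a log2 fold change of 1.19 (limma, adjusted p = 0.0149), a call lost without DMSO replicate 1 (0.85, limma adjusted p = 0.0687).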

How the data were processed

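Per the labels and the methods of the study, poly(A) RNA was enriched with oligo(dT) and sequenced, and reads were aligned with HISAT2. The submitters' processing notes also list HTSeq 0.12.4, DESeq2 and hg19, while the methods name hg38, and the deposited positions of all 10 genes overlap those of GENCODE release 44 on GRCh38. The strand setting of the counting is not given in the sources used here.

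The values the authors deposited are a signal per gene and sample, adjusted to a common library size, not counts. They proved to be counts put through edgeR's quantile adjustment and are called adjusted reads here. Undoing it gave whole reads recovered to within 0.02 in 100% of the 96432 values from 10 upward. The authors also deposited fold changes, p-values and q-values, which were not used.

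Genes were kept by filterByExpr of edgeR 4.0.16 on the adjusted values (minimum 10 in 3 samples, 15 in total), and pladienolide B was compared with DMSO by limma 3.58.1 in R 4.3.3 on log2(value + 1) with a variance trend, two-sided, with Benjamini-Hochberg adjustment. The pseudocount of 1 makes changes of low genes smaller. Levels per length used the recovered reads, the plain library totals and the GENCODE canonical transcript. The alternatives were other filters, a pseudocount of 0.1, no variance trend, a replicate block, count tests on the recovered reads (edgeR, DESeq2 1.42.0, limma-voom) and leaving out each sample. The scripts were tested on simulated data. The members and lists were chosen with earlier results of these data known. Named genes are the 10 members, their neighbouring transcripts, the 3 genes most like the member with the largest change, and in each list the 2 largest rises and falls that passed and any 2-fold change. Other genes named were chosen after their values were seen. The labels do not say whether same-numbered samples were paired. Correlations of same-numbered samples' deviations were −0.02, −0.02 and 0.00, and those of differently numbered samples −0.04 to 0.05. With deviations taken from means of 3 samples, these values cannot show whether the samples were paired, and the main fit did not pair them.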

Additional observations from a re-analysis of the deposited data

How the results depend on the processing

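Of 170 values of the 10 genes under the alternatives, 147 kept their direction and their side of the threshold, 23 kept the direction and lost the call, and 0 changed direction. The fits without a filter and with a mean value of at least 0.1 each tested 27679 genes and gave identical values. The 170 values, and the 645 below, hold these values under both names. CDH2, VIM and SNAI2 passed under every alternative, and EPCAM and TWIST1 under none. The number of the 10 genes that passed was 8 by limma and by edgeR with any of the 3 normalizations, 6 by DESeq2, 6 without a filter or with a mean value of at least 0.1, and 6 without the variance trend. It was 3 to 8 when 1 sample was left out: 5 without DMSO replicate 1 or without pladienolide B replicate 1, and 3 without pladienolide B replicate 3. Without a filter, and with the mean of 0.1, the CDH1 (0.67, adjusted p = 0.093 by limma) and ZEB1 (0.17, 0.0549) calls were lost. DESeq2 gave CDH1 0.70 (adjusted p = 0.0761) and ZEB1 0.18 (0.0502). Without the variance trend, ZEB1 (0.17, adjusted p = 0.083 by limma) and ZEB2 (0.19, 0.0835) did not pass. Leaving out 1 sample gave log2 fold changes of 0.60 to 0.72 for CDH1, 0.14 to 0.22 for ZEB1, 0.12 to 0.22 for ZEB2, −0.38 to −0.25 for SNAI1 and −0.50 to −0.34 for ESRP1. The cause of these losses was not tested, and leaving out a sample also leaves fewer samples. Without the variance trend the calls in the list of transition factors went from 8 to 5, of corepressors and turnover from 8 to 5, of catenins from 5 to 2 and of epithelial transcription and splicing factors from 4 to 2. Without a filter the last 2 lists had 3 and 2 calls, and the block left 3 catenin calls. Of 645 values of the 38 other named genes, 606 kept their call, 39 lost it and 0 changed direction.

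The replicate number was also fitted as a block, although same-numbered samples did not deviate together. With the replicate block 7 of the 10 genes passed, since ZEB1 (0.17, adjusted p = 0.061 by limma) did not, and 7349 of all genes passed in place of 7695.

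Depth limits CDH1 the most, at 23 to 40 reads a sample, and 3 samples a group leave an interval of 0.15 to 1.18 on its log2 fold change. The intervals of EPCAM and TWIST1 allow small changes in either direction.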
